A study of Mus musculus with 12 samples.

Results

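The loci of Nrl and Nr2e3, which encode the transcription factors that set and keep the rod fate, were examined in the lists of differentially methylated regions (DMRs) between Tet tcKO and Cre- mouse retinas. Each gene was taken from the GENCODE M21 annotation of mm10, widened by 5 kb on each side, and every listed region that overlapped it by at least 1 bp was kept. This gave 31 regions of the 786742 in both lists. WGBS contributed 10 regions of 193836 and bACE-seq 21 of 592906. At Nrl there were 5 WGBS and 9 bACE-seq regions, and at Nr2e3 5 WGBS and 12 bACE-seq regions.

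DNA came from whole retinas of C57 BL/6J mice at postnatal day 21. Tet tcKO animals carried loxp alleles of Tet1, Tet2 and Tet3 on both chromosomes and the Chx10-Cre-GFP transgene, which acts in retinal progenitors and is mosaic. Cre+ breeders were in-crossed so that Tet tcKO animals held a pair of working copies of the transgene. Cre- animals, labelled WT, lacked the transgene, were age-matched, came from Cre- breeders, and have no loxp alleles named in their labels. Per the study's methods, each sample pooled the retinas of a pair of animals. Per assay, 3 libraries were Cre- and 3 were Tet tcKO. By the paper's account both assays used the DNA matched to its RNA-seq samples, so they are not independent sets of animals. WGBS (whole-genome bisulfite sequencing) reads 5-methylcytosine (5mC) and 5-hydroxymethylcytosine (5hmC) together, and bACE-seq reads 5hmC alone. A level is the authors' group mean over the CpGs of a region, in percent. It was estimated with smoothing over neighbouring CpGs, so it is not a raw percentage of reads. A change is Tet tcKO minus Cre- in percentage points. The lists hold no value per library and no read depth, so the depth is unknown and no error or test can be given for a level. Every listed region had already passed the authors' caller, so its difference is a description. Retina is a mixture, so a changed share of a cell type and a changed level per cell cannot be told apart.

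NRL is a basic leucine zipper factor of the Maf family, made in cells that become rods, where it switches on rod genes together with CRX. NR2E3 is an orphan nuclear receptor that NRL turns on, and it holds cone genes down in rods while helping to activate rod genes. Loss of either gene in mice yields photoreceptors with cone features, and with loss of Nrl these take the place of rods. The TET enzymes oxidise 5mC to 5hmC, a step on the way to unmodified cytosine, and 5hmC is also a lasting mark in neurons.

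Both promoters were poor in CpGs, the dinucleotide in which these modifications were measured. Within 500 bp of the main start site there were 15 CpGs at Nrl and 16 at Nr2e3, against a median of 43 over 21853 protein-coding genes. The 250 bases just before the main start site of Nr2e3 are shown first because they lay whole inside a WGBS gain. They are chr9:59950118-59950367 of the mm10 reference (RefSeq GRCm38.p6), minus strand, 5′ to 3′, with every CpG in capitals here and in the sequences that follow.
Nr2e3 promoter: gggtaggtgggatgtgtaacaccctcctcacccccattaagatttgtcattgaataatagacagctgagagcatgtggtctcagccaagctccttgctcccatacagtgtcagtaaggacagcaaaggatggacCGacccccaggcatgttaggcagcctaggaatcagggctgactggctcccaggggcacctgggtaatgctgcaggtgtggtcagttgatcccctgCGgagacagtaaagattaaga
This stretch holds 2 CpGs, so few positions carry the signal next to the start site. The coding exons of Nrl differed in CpG density, and 300 bases of each are shown because the first lay inside a gain and a 5hmC loss while the second lay in neither list. They are chr14:55522106-55522405 in exon 3 and chr14:55520588-55520887 in exon 4, minus strand.
Nrl exon 3: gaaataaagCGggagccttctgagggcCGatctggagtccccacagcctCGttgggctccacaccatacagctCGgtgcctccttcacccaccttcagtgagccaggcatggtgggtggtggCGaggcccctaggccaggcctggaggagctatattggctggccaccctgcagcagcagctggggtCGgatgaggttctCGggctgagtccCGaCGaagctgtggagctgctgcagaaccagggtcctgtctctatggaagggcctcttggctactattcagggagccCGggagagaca
Nrl exon 4: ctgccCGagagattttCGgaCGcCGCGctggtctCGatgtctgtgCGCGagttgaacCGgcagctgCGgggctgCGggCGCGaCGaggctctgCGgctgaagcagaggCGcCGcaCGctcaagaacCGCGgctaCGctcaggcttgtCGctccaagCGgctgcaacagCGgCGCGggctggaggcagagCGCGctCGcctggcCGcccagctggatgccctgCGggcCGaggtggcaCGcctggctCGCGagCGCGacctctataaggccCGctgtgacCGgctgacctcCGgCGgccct
Exon 3 has 10 CpGs in this stretch and exon 4 has 41. The last sequence is the Nr2e3 region with the lowest 5hmC, chr9:59948691-59948856 on the minus strand, which runs from the end of intron 3 into coding exon 4 and holds 6 CpGs.
Nr2e3 region of lowest 5hmC: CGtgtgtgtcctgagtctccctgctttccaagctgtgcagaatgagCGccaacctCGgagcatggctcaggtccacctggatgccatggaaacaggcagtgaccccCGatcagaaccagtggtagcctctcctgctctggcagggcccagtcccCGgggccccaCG
Short motifs of the factors that act on these genes were sought on both strands of the RefSeq promoter windows, from 250 bases before to 50 after the RefSeq start. TAATCC (CRX and OTX2) is in 7.06% of the 32851 promoter windows, TGCTGA (the core of the NRL response element) in 19.5% and AGGTCA (bound by nuclear receptors) in 16.3%. None of these exact letters is in either gene's window. The RefSeq start of Nrl lies 729 bases inside the gene as annotated here and that of Nr2e3 38 bases inside.

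At Nrl (ENSMUSG00000040632.16, chromosome 14, 55518978 to 55524981, minus strand, 4 exons), WGBS levels were higher in Tet tcKO in all 5 regions. Gains made up 98.6% of the WGBS list, and 76.8% of protein-coding loci defined in the same way held at least 1, so the presence and direction of a gain say little about Nrl. The longest, 55521261 to 55527616, spanned 6356 bp and 94 CpGs, from 2.64 kb upstream of the main start site to 3.72 kb into the gene. It went from 35.7% in Cre- to 70.3% in Tet tcKO, higher by 34.6 points. Among the 191164 gains it ranked 149th by CpGs and 92nd by length, and 96.5% of gains were smaller in points. It took in all 25 CpGs of the promoter (2 kb before the start site), the untranslated exons 1 and 2 and all 11 CpGs of exon 3, the first coding exon.

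A second gain, 55518838 to 55520350 with 16 CpGs, lay in the untranslated end of exon 4 and ran just past the gene. Its Cre- level of 28.9% was the lowest of the 10 WGBS regions, and it reached 63.6% in Tet tcKO. Downstream of the gene the Cre- levels were higher and the rises smaller. The region 55515958 to 55518653, with 52 CpGs, went from 56.35% to 80.5%, higher by 24.15 points. The short regions 55514269 to 55514320 and 55513889 to 55514075, with 4 CpGs each, rose by 9.13 and 18.5 points. The last 3 regions overlap Cpne6, a copine gene on the plus strand that ends 1547 bp from Nrl, so they cannot be assigned to Nrl alone.

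5hmC was lower in Tet tcKO in all 9 bACE-seq regions at Nrl. Losses were 592697 of the 592906 bACE-seq regions, and 88.2% of protein-coding loci held at least 1. In Cre-, 5hmC followed the gene's layout. Upstream, the region 55527130 to 55528121 had 28.8% and the promoter region 55525443 to 55526711 had 25.6%. Inside the gene the level was 9.59% at 55523531 to 55524117, mostly in intron 2, and 12.7% at 55521390 to 55522405, across exon 3 and part of intron 3. It was 20.2% at 55519687 to 55520086, in the untranslated end of exon 4, and 30.5% at 55517844 to 55518848, just beyond the end of the gene. The gene's core thus had less 5hmC in Cre- than either side of it. The largest region, 55510900 to 55517503 with 135 CpGs, had 24.9% and ran through Cpne6. At the far upstream edge the regions 55529049 to 55529433 and 55529705 to 55529938, inside the antisense gene Gm10876, had 16.1% and 8.94%.

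In Tet tcKO the 9 levels lay between 2.28% and 7.73%. The part of the Cre- level that was kept ranged from 23.2% in the upstream region 55527130 to 55528121 to 32.5% in exon 4. Unconverted cytosines, which the paper put at about 2% of unmodified ones, were not subtracted per region. The low end is therefore uncertain where the Tet tcKO level is small, as at 55529705 to 55529938 (2.28%). The 5 regions of highest Cre- level were also the 5 highest in Tet tcKO, with the promoter region at 7.73% and the intron 2 region at 2.70%. Just beyond the end of the gene 5hmC fell by 22.8 points, more than in 97.2% of all 5hmC losses. In intron 2 it fell by 6.89 points, more than in 16.1% of them.

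Neither of the 2 lists covered the densest part of Nrl. A stretch of 831 bp with 61 CpGs, from 3.73 kb to 4.56 kb inside the gene, separated the 2 gains of the gene and held 43 of its 54 coding CpGs. It contains the exon 4 sequence printed above, which encodes the basic leucine zipper end of the protein. Coding exons of Nrl had 7.59 CpGs per 100 bp, against 1.83 over the locus. A CpG outside both lists carries no value here, and its level in either group is not known.

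**Figure D1:**
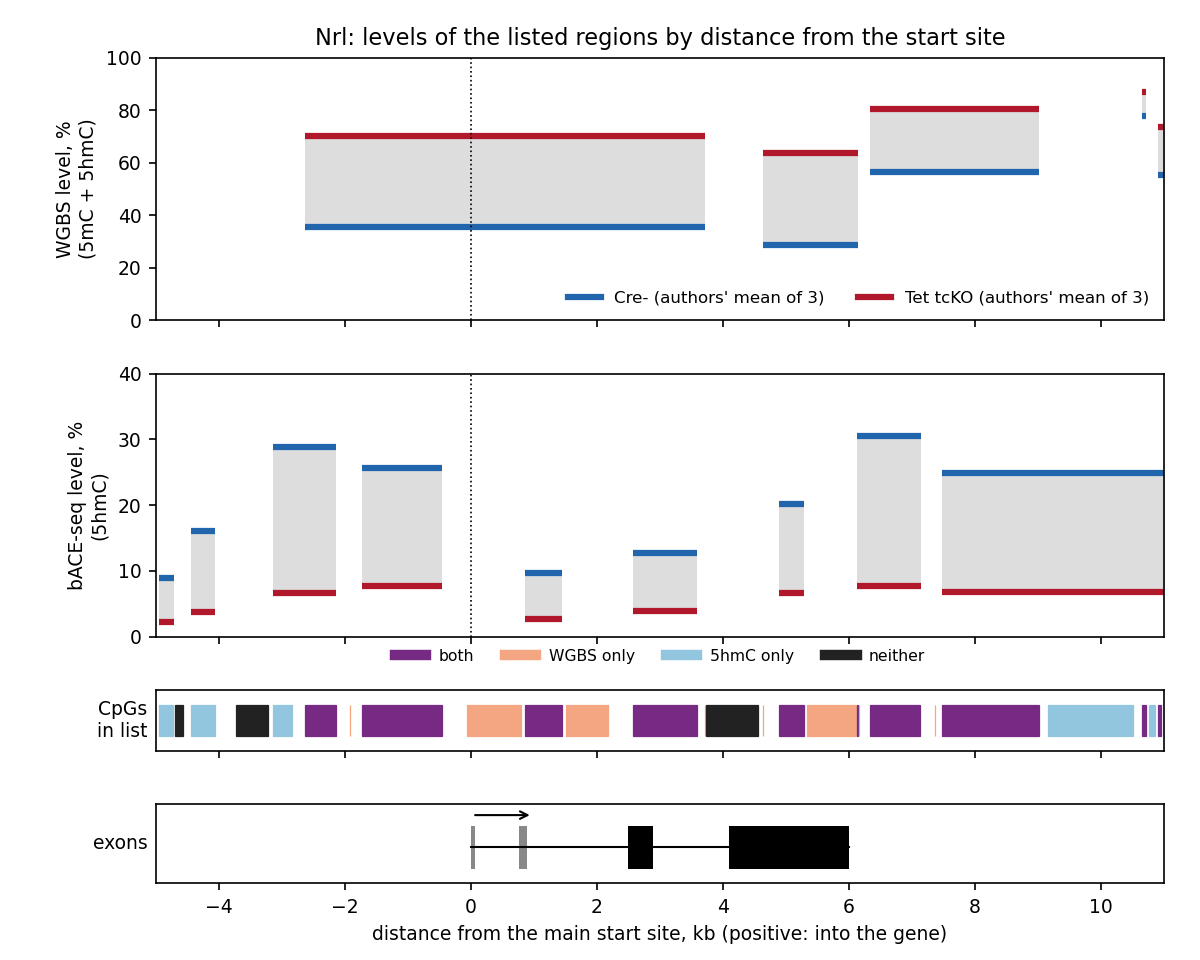
Levels of the listed regions at Nrl by distance from the main start site in kb, with WGBS above and bACE-seq below. Blue and red lines are the authors' means of 3 Cre- and 3 Tet tcKO libraries (no error is given in the lists), grey joins both, the strip shows the CpGs in both lists, 1 list or neither, and exons that hold coding sequence are black. The gain over the start site went from 35.7% to 70.3%, while Cre- 5hmC was 25.6% in the promoter and 9.59% in intron 2.

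At Nr2e3 (ENSMUSG00000032292.8, chromosome 9, 59942771 to 59960659, minus strand) the gene record runs 10.5 kb upstream of the coding transcript, which starts at 59950117 and has 8 exons, because it includes non-coding transcripts. All 5 WGBS regions were higher in Tet tcKO. A single gain, 59944004 to 59954485, covered 10482 bp and 141 CpGs from 4.37 kb upstream of the main start site to 6.11 kb inside the gene. It went from 34.7% in Cre- to 73.2% in Tet tcKO, higher by 38.5 points. It ranked 44th by CpGs and 18th by length among the 191164 gains, and 98.2% of gains were smaller in points. It held all 23 promoter CpGs, 26 of the 29 coding CpGs and 55 of the 58 intron CpGs. The 6 CpGs of exon 8, the last exon, lay outside it.

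The other 4 gains flanked this region. Upstream, 59955067 to 59956489 with 14 CpGs went from 37.8% to 70.45%, a rise close to that of the long gain. Farther upstream, 59960420 to 59962227 with 39 CpGs went from 64.1% to 80.45%. That region spans the start sites of the non-coding transcripts and overlaps the lincRNA gene Gm15507. Downstream, 59941941 to 59942047 with 5 CpGs rose by 18.1 points and 59939249 to 59941472 with 30 CpGs by 25.3 points. The latter overlaps the antisense gene Gm20275, as does the downstream 5hmC region, so they cannot be assigned to Nr2e3 alone. Another antisense gene, Gm7616, overlaps the gain 59955067 to 59956489 and the upstream part of the long gain, with part of the promoter. Those stretches cannot be assigned to Nr2e3 alone either. The Cre- level thus was lowest in and just before the coding gene and higher toward both ends of the locus. At Nrl the higher levels were downstream, and no WGBS region was listed upstream of the long gain.

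5hmC was lower in Tet tcKO in all 12 bACE-seq regions at Nr2e3. In Cre- the level again dipped over the gene. It was 26.7% at 59955859 to 59959424 and 29.5% at 59953635 to 59955285, both upstream and both inside the antisense gene Gm7616 for at least part of their length. It was 15.55% at 59952345 to 59952715, also inside Gm7616, and 16.8% at 59949377 to 59950885, the region that spans the main start site and exon 1. Inside the gene it was 8.32% at 59948691 to 59948855 (exon 4), 10.4% at 59947141 to 59947599 (exon 6) and 13.0% at 59946041 to 59947038 (mostly intron 7).

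Toward the end of the gene it was 22.8% at 59942668 to 59945336, which includes exon 8, and 27.2% at 59938129 to 59942162 downstream. The distal upstream regions had 24.7% (59959852 to 59963188), 15.7% (59963751 to 59963978) and 19.2% (59965101 to 59969086, with 13 of its 56 CpGs inside the locus). The 3 lowest Cre- levels of the 12 were thus those between exon 4 and intron 7.

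In Tet tcKO the 12 levels lay between 2.59% and 6.57%. The part kept ranged from 18.6% at 59952345 to 59952715, upstream of the promoter, to 39.0% at the exon 4 region printed above. Their Tet tcKO levels were low, 2.89% and 3.24%. Unconverted cytosines, about 2% by the paper's estimate, were not subtracted per region, so both ends of this range are uncertain. In the exon 4 region 5hmC fell by 5.07 points, the smallest change of the 21 regions, and 5.68% of all 5hmC losses were smaller. At 59953635 to 59955285 it fell by 22.9 points, and 97.3% of losses were smaller.

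**Figure D2:**
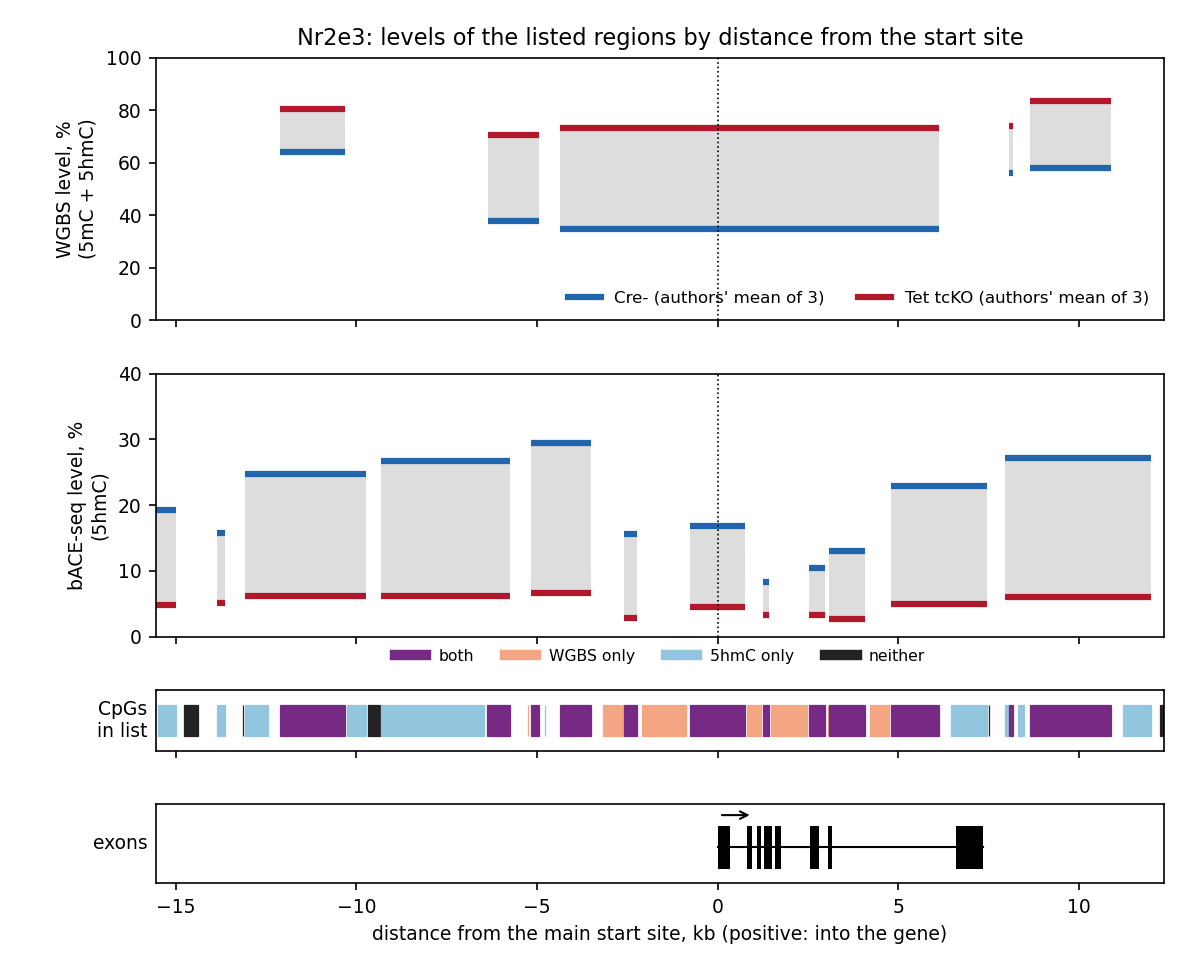
Levels of the listed regions at Nr2e3 by distance from the main start site of the coding transcript in kb, with WGBS above and bACE-seq below. Lines, colours, strip and exons are as defined in the map of Nrl, and no error is given in the lists. The long gain from 34.7% to 73.2% covered the start site and most of the gene, where Cre- 5hmC was as low as 8.32%, beside 29.5% upstream.

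Set side by side, the 2 genes had near-equal levels before and after TET loss. Weighted by CpGs, the WGBS regions averaged 42.7% in Cre- and 73.2% in Tet tcKO at Nrl, and 43.45% and 75.6% at Nr2e3. The 5hmC losses averaged 22.1% and 6.03% at Nrl, and 23.2% and 5.44% at Nr2e3. Tet tcKO kept 27.3% of the Cre- 5hmC at Nrl and 23.5% at Nr2e3. Over all protein-coding loci with a listed region the medians were 57.2% and 75.5% for gains, 14.5% and 3.41% for 5hmC losses, and 23.6% kept. In their listed regions, both loci thus had less WGBS signal and more 5hmC in Cre- than the median locus. Both ended near the median WGBS level in Tet tcKO. Their rises of 30.6 and 32.2 points were above those of 98.3% and 98.8% of loci. The 5hmC excess was uneven along each locus. At Nrl, Cre- 5hmC was 11.3% in introns and 12.7% in coding exons, below the median locus. It was 25.9% in the downstream flank of Nrl, which overlaps Cpne6. At Nr2e3 the levels in these parts were 18.5%, 12.6% and 27.1%.

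**Figure D3:**
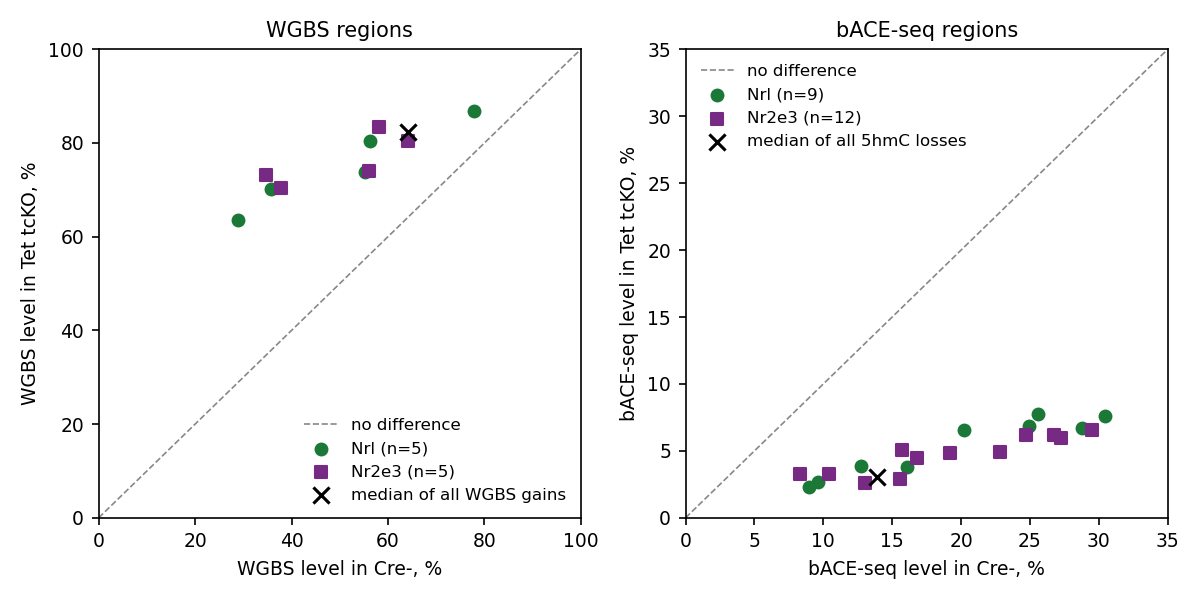
Level in Tet tcKO against level in Cre- for the 10 WGBS and 21 bACE-seq regions at both genes, in percent, each point 1 region (authors' group means) and the cross the median of all gains or all 5hmC losses. All WGBS points lie above the dashed line of equal levels and all bACE-seq points below it, and the WGBS regions of lowest Cre- level (28.9% to 37.8%) lie farthest above it.

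The share of CpGs inside the listed regions depended on position. In the promoter, 25 of 25 CpGs at Nrl and 23 of 23 at Nr2e3 lay in a gain. With a promoter of 5 kb the shares were 50.79% and 98.28%. In 5hmC losses lay 84.0% of promoter CpGs at Nrl and 47.8% at Nr2e3, but with a promoter of 1 kb the order turned, with 70.0% and 73.33%. The downstream flank showed the reverse weighting, with 97.9% and 93.3% of CpGs in 5hmC losses and 64.9% and 58.3% in gains. Introns had 76.3% (Nrl) and 94.8% (Nr2e3) in gains but 45.8% and 67.2% in 5hmC losses. Coding exons had 20.4% in gains at Nrl, where most CpGs of exon 4 were unlisted, and 89.7% at Nr2e3. Untranslated exons had 82.6% in gains and 26.1% in 5hmC losses at Nrl, and 62.5% and 100% of only 8 CpGs at Nr2e3. The part upstream of the promoter had 18.4% in gains and 73.7% in 5hmC losses at Nrl, and 49.4% and 84.9% at Nr2e3. This part was 3000 bp at Nrl and 13542 bp at Nr2e3, where it includes gene record before the coding transcript. Over the whole locus 168 of 293 CpGs at Nrl (57.3%) and 229 of 350 at Nr2e3 (65.4%) lay in gains, against 8.61% of all reference CpGs. Counted by base pairs the order of the genes turned, with 66.95% at Nrl and 57.53% at Nr2e3. For 5hmC losses the counts were 185 (63.1%) and 276 (78.9%), against 34.4% of all reference CpGs. Without the 5 kb on each side, the shares in 5hmC losses were 32.35% at Nrl, near that background, and 72.12% at Nr2e3. The excess at Nrl thus lay in its flanks, which there include the promoter. The gene record of Nr2e3 contains its promoter. Counting only 5hmC losses of at least 20 points left 10.58% and 33.43%, for which no background was computed.

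**Figure D4:**
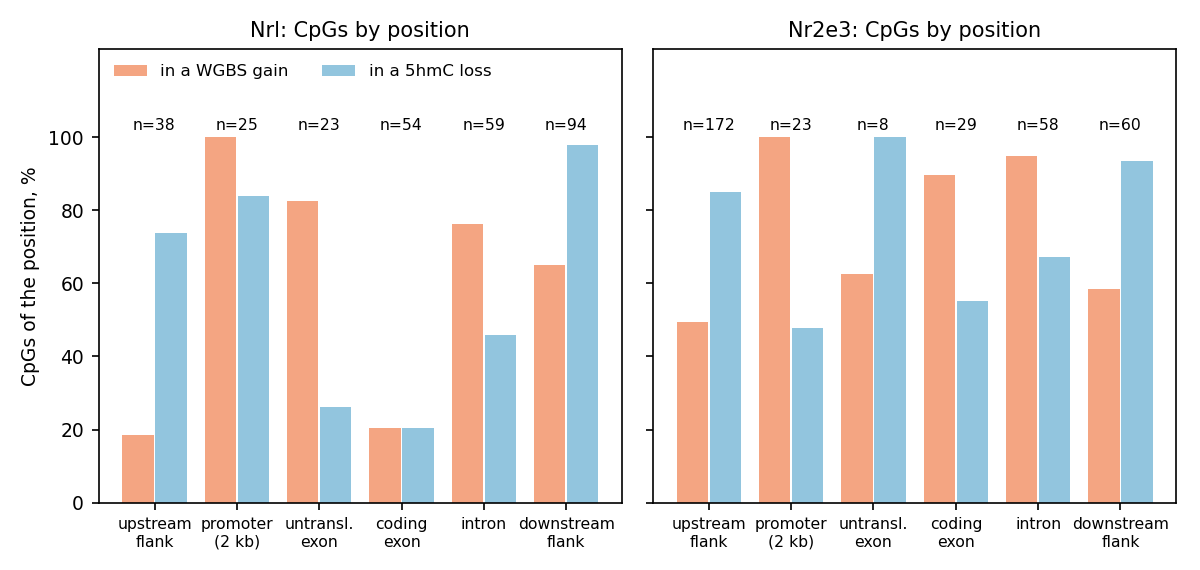
Share of CpGs inside a WGBS gain (orange) or a 5hmC loss (blue) by position at each gene, in percent, with the number of CpGs above each pair of bars. The upstream flank of Nr2e3 includes part of its gene record. Both promoters were wholly inside a gain (100%), and the coding exons of Nrl (20.4% in each list) stood below those of Nr2e3 (89.7% and 55.2%).

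The start sites differed between the assays. Both main start sites lay in a gain, as did those of 4.99% of 21853 protein-coding genes and of 7.49% of the 10828 genes with fewer CpGs than the median near the start. Every annotated start site of both genes was in a gain, 7 at Nrl and 8 at Nr2e3. Those of Nrl all lay in its long gain. Those of Nr2e3 lay in its long gain and in the gain farthest upstream. The start sites of a gene thus share regions and are not separate observations. Of all genes, 16.4% had at least 1 annotated start site in a gain, a looser count. In 5hmC losses lay none of the 7 start sites of Nrl and all 8 of Nr2e3. The background was 11.6% of main start sites in a 5hmC loss, and 41.7% of genes had at least 1 annotated start site in such a region. The share of genes with every annotated start site in a gain or a 5hmC loss was not computed. At Nrl no 5hmC loss was listed from 0.46 kb upstream to 0.86 kb inside the gene, where 17 CpGs lay in the gain alone.

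CpGs in both lists show how the 2 signals changed together. There were 131 at Nrl (44.7%) and 172 at Nr2e3 (49.1%), against 6.36% of all reference CpGs. Each such CpG was given the mean of its whole region in each list, not a level of its own. On that basis, at those CpGs of Nrl, WGBS went from 44.95% to 74.45% and 5hmC from 21.75% to 6.05%. At those of Nr2e3, WGBS went from 46.3% to 76.5% and 5hmC from 22.3% to 5.24%. The WGBS level minus the 5hmC level was 23.2 points in Cre- and 68.4 in Tet tcKO at Nrl, and 24.0 and 71.2 at Nr2e3. This difference is only a rough estimate of 5mC alone, because the means cover regions of different extent. In Cre-, 5hmC equalled 48.4% of the WGBS level at Nrl and 48.1% at Nr2e3, and in Tet tcKO 8.13% and 6.86%.

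This ratio varied along each gene in Cre-. In the Nrl promoter, over 21 CpGs, 5hmC equalled 71.7% of the WGBS level, and in intron 2, over 13 CpGs, 26.9%. At Nr2e3 it was 84.9% over the 14 CpGs at the upstream end of the long gain and 23.9% over the 6 CpGs of the exon 4 region. The numerator and the denominator are means over regions of different extent, so such a ratio is not a local measurement. At 2 CpGs at the end of Nrl it came to 105.4%, above what a true share could be.

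The share of locus CpGs in gains was high for both genes among all 21853 protein-coding genes. The median gene had 6.17% of its CpGs in gains, and 44 genes had more than Nrl and 23 more than Nr2e3. The median gene was richer in CpGs near the start site (43 within 500 bp, against 15 at Nrl and 16 at Nr2e3). No background of genes poor in CpGs was computed for this share. For 5hmC losses the median was 37.2%. Nrl exceeded 88.6% of genes in that share and Nr2e3 98.3%. 5hmC fell by 16.1 points at Nrl, and it fell by 17.7 points at Nr2e3, while at the median locus it fell by 11.1 points.

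Genes around these factors were described in the same way, by role. Of the 5 upstream factors, which act before or with NRL in photoreceptor precursors, all had gains, as did 76.8% of protein-coding loci, and the share of CpGs in them had a median of 44.65%. Crx, the homeobox factor that activates photoreceptor genes, had 87.15%, the highest of all protein-coding genes here, and its gains went from 28.2% to 69.8%. Otx2, the homeobox factor that starts photoreceptor fate, had 45.9%, Rorb, a nuclear receptor needed to turn Nrl on, 44.65%, Prdm1, a repressor that favours photoreceptors over bipolar cells, 36.0%, and Neurod1, a basic helix-loop-helix factor, 25.4%. The main start sites of 2 of the 5 lay in a gain, beside 4.99% of all genes. Among the partners of the proteins, Nr1d1, a nuclear receptor that acts with NR2E3, had 51.4%, Pias3, a SUMO ligase that modifies NR2E3, 32.2%, and Fiz1, a zinc finger protein that binds NRL, 14.7%, and none of the 3 had its main start site in a gain.

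The targets are rod and cone genes, and their start-site counts stand beside 4.99% of all genes and 7.49% of those poor in CpGs near the start. Over 11 rod genes, the median share was 43.4%, from 20.7% at Cngb1, a subunit of the rod cyclic nucleotide-gated channel, to 62.6% at Gnb1, a transducin subunit, and 8 main start sites lay in a gain. Over 12 cone genes held down in rods, the median was 7.00%, and 6 main start sites lay in a gain. The share ran from 0% at Opn1mw, the green cone opsin, and at Arr3, cone arrestin, to 42.1% at Gngt2, the cone transducin gamma subunit. Opn1mw and Arr3 lie on chromosome X. Opn1mw had no region in either list, and whether its CpGs had data is not known. At Arr3, 26.3% of CpGs lay in 5hmC losses. Nrl had a larger share than 8 of the 11 rod genes, and Nr2e3 a larger share than all 11. The 5 relatives of the proteins described here, Maf, Mafa, Nr2e1, Nr2f1 and Nr2f2, had a median of 11.99%, from 1.18% at Nr2f2 to 19.6% at Maf, and none had its main start site in a gain. The relatives had a median of 63 CpGs within 500 bp of the start site, and the rod and cone genes 15 each. The median kept 5hmC was 24.7% in upstream factors, 27.2% in partners, 23.1% in rod genes, 24.8% in cone genes and 23.8% in relatives. These lists were picked with results of these data known, and the differences between them were not tested.

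**Figure D5:**
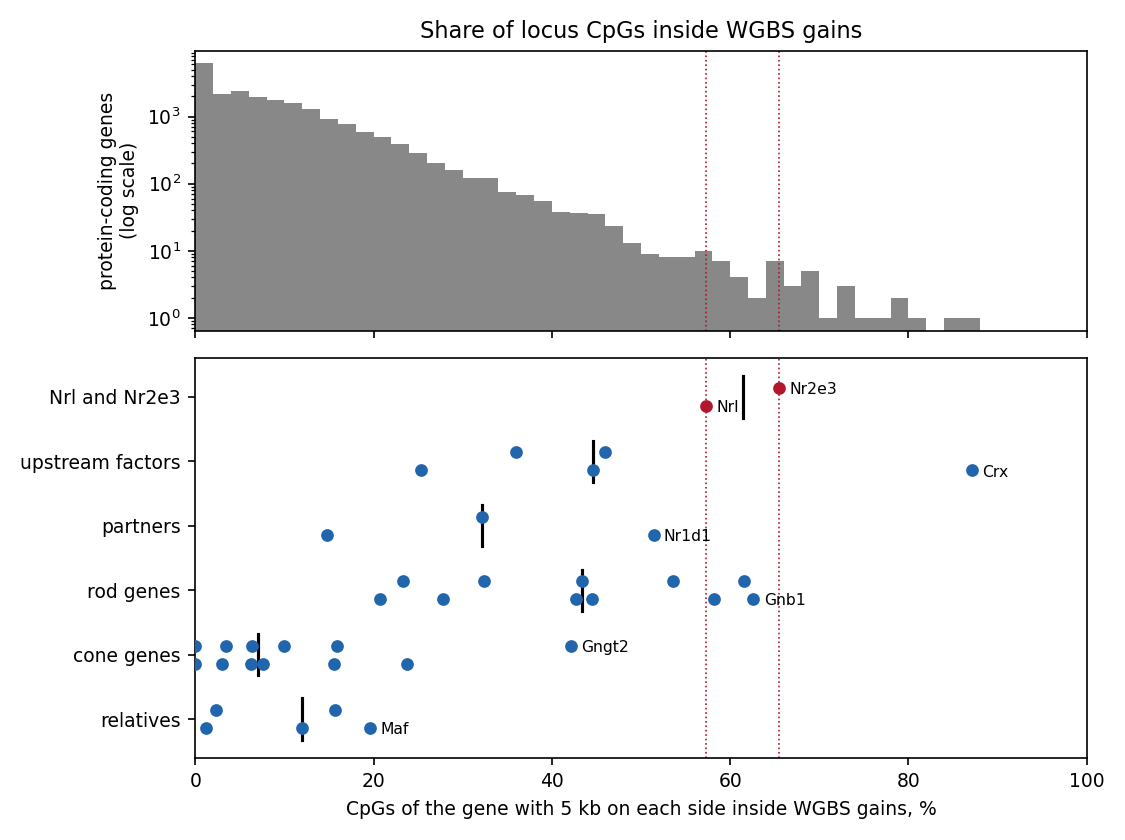
Share of locus CpGs inside WGBS gains, in percent, over 21853 protein-coding genes (upper panel, number of genes on a log scale) and for the lists named in the text (lower panel, 1 point a gene, black bars the list medians). The dotted lines mark Nrl at 57.3% and Nr2e3 at 65.4%, and Crx lies at 87.15%.

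Genes with start sites most like those of Nrl and Nr2e3 were ranked by Euclidean distance over 4 values, the Cre- and Tet tcKO levels of the gain at the main start site and of the 5hmC losses within 2 kb of it, among 1054 genes with all 4. The nearest to Nrl were Arhgef33 (3.34 points), Rp1l1, a protein of the photoreceptor axoneme (3.35 points), and Nwd1 (3.61 points). At Rp1l1 the gain went from 35.5% to 71.55% and 5hmC from 22.6% to 5.49%, beside 35.7% to 70.3% and 19.5% to 5.80% at Nrl. The nearest to Nr2e3 was Cacna1f, a calcium channel subunit of photoreceptor synapses (2.56 points), with a gain from 36.1% to 71.4% and 5hmC from 14.02% to 3.86%, beside 34.7% to 73.2% and 15.1% to 4.25% at Nr2e3. Rcvrn, recoverin, the calcium sensor of photoreceptors, was the third (4.87 points).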

How the data were processed

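Group means of the DMR lists were used for 6 WGBS and 6 bACE-seq libraries, 3 Cre- and 3 Tet tcKO each. As the labels and the methods state, trimmed reads were aligned by the authors with Bismark (0.18.2) against mm10 and filtered to mapping qualities of at least 10. Duplicates were removed with Picard, CpG levels were extracted with MethylDackel (0.6.1) and DMRs were called with DSS (smoothing, p threshold 0.01, at least 3 CpGs and 50 bp, merging within 50 bp). Smoothing makes region edges inexact and blends the levels of neighbouring CpGs. A CpG outside a list is not shown to be unchanged. The deposited group means are a fraction from 0 to 1, given in percent in the text. The lists' area statistic, a deposited score, served only as a filter in 1 alternative. The authors' difference column was not used. Changes were computed from the group means. Which mean belongs to which group was read from the lists' names.

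Every region started and ended on a CpG of the mm10 reference. Main start sites were those of APPRIS principal and CCDS coding transcripts of GENCODE M21. Shares count reference CpGs inside regions, and locus means weight regions by CpGs inside the locus. A region's mean covers its whole extent. Counting was tested on simulated regions. Analyses used Python 3.11.15, numpy 2.4.6 and pandas 2.3.3. No value per library and no read depth was analysed, so no test between groups was made.

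The genes and lists were chosen with earlier results of these data known. Named genes were both members, overlapping genes, the highest and lowest of each list (all in lists of 6 or fewer) and the 3 nearest by start-site levels. Some genes and 1 sequence that these rules select are not reported here, and list summaries were computed without such genes. The closing section gives the alternatives, which changed flanks, promoter width, region filters, weights and background.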

Additional observations from a re-analysis of the deposited data

How the results depend on the processing

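Of 69 alternative values, 37 moved and 32 did not. For a share, moved means outside the 95% Wilson interval of its CpG count (wide for few CpGs). For a mean level it means any shift beyond rounding. The interval treats each CpG as a separate draw, but CpGs of the same region were called together and are not separate observations. At Nrl, 94 of the 168 CpGs in gains lay in 1 region, and at Nr2e3 141 of 229. Moved is therefore only a label for the size of a shift, not a test. No paired analysis was possible because the lists hold 1 mean per group, and leaving out a replicate was not possible for the same reason.

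The share of CpGs in gains became 49.54% at Nrl and 54.93% at Nr2e3 with flanks of 10 kb, and 66.95% and 57.53% by base pairs, which turned the order of the genes. At Nr2e3 it was 73.89% with no flank, 52.86% for regions differing by at least 0.2 and 83.57% for the coding transcript's span with 5 kb on each side, an alternative chosen after seeing the data. A promoter of 5 kb gave 50.79% at Nrl and 98.28% at Nr2e3. The share in 5hmC losses at Nrl was 32.35% with no flank, 70.28% with flanks of 10 kb, 48.46% and 10.58% for differences of at least 0.1 and 0.2, and 57.0% for at least 10 CpGs. At Nr2e3 it was 72.12% with no flank, 33.43% at 0.2, 71.71% for at least 10 CpGs, 73.43% for a statistic past p of 0.001, 70.08% by base pairs and 71.83% for the coding span, the last chosen after seeing the data. In promoters it was 61.82% at Nrl for 2 kb on each side and 73.33% at Nr2e3 for 1 kb, where Nrl had 70.0% and the order of the genes turned. Unweighted WGBS means were 50.77% and 74.98% at Nrl and 50.15% and 76.33% at Nr2e3, and those of 5hmC 19.7% and 5.341%, and 19.16% and 4.676%. Regions at least 50% inside gave 23.35% for Cre- 5hmC at Nr2e3. Subtracting 1 or 2 points of unconverted cytosines lowered the 5hmC kept to 23.84% and 20.05% at Nrl, and 20.05% and 16.28% at Nr2e3. The background of start sites was 16.39% in gains and 41.67% in 5hmC losses for any annotated start site, and 7.49% in gains for genes poor in CpGs, chosen after seeing the data. Each move follows from the windows, regions, weights or subtraction that the alternative changed.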
